A study of Mus musculus with 12 samples.

Results

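Junctions between endothelial cells decide what leaves the blood, and 9 genes that encode their parts are described here across mouse mesentery and epididymal fat on 2 diets: Cdh5, Ctnnb1, Pecam1, Cldn5, Ocln, Tjp1, F11r, Jam2 and Esam. They were taken by their symbols, and all 9 were among the 27825 genes of the deposited table. All 9 also had a mean of at least 10 normalized counts over the 12 libraries and so entered the tests, which covered 22238 genes. Cldn5, which encodes claudin-5, was 18-fold higher in epididymal than in mesenteric cells on chow, and Pecam1 was lower there. In that comparison 12.8% of all genes tested passed, and 10 of 14 other endothelial genes were lower as well. The call of Pecam1 was lost with TMM scaling and with edgeR. In limma, the main test, none of the 9 passed for an effect of the diet in either tissue. Of all genes tested it called 0.0135% in mesentery and 0.549% in epididymal fat. DESeq2 called 1 of the 9 in each tissue, Cldn5 in mesentery (0.755% of 19857 genes) and Jam2 in epididymal fat (4.29% of 13118). Its shares, here and below, are of the genes to which it gave an adjusted p.

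RNA was sequenced from sorted endothelial cells of male mice of the genotype ROSA26-eYFP+/+ Cdh5-CreERT2+, so all 4 groups carry the same 2 alleles. In these mice tamoxifen activates a Cre recombinase made in cells that use the Cdh5 (VE-cadherin) promoter, and Cre switches on a yellow fluorescent protein for good. All mice ate tamoxifen food for 2 weeks from 6 weeks of age, and from 8 weeks of age either normal chow (5.8% fat) or a high fat diet (HFD, 60% fat) for 12 to 13 weeks. The groups are mesentery on chow, mesentery on HFD, epididymal fat on chow and epididymal fat on HFD, each with 3 libraries titled A, B and C, and each sample pooled the tissue of 6 mice. The reporter marks any cell in which the promoter was active while tamoxifen was given, lymphatic endothelium included, and the promoter belongs to 1 of the 9 genes. The protocol speaks of 2 independent replicates while the titles give 3 letters, so n = 3 below counts libraries, and the p-values measure the spread between these libraries, which may in part be technical.

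Endothelial cells hold together through adherens junctions, where VE-cadherin binds its partner on the next cell and the catenins tie it to actin, and through tight junctions, where claudins and occludin seal the gap and zonula occludens proteins anchor them. Proteins of the immunoglobulin family, PECAM-1, ESAM and the junctional adhesion molecules, sit beside both and guide leukocytes through the wall. The make-up of these junctions is known to differ between vessel beds and between arteries, capillaries and veins.

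Recovered reads per library ranged from 8348897 to 25397963, so that 3 reads corresponded to between 2.12 and 4.22 normalized counts. The mean log2 level of 14 other endothelial genes was 12.8 to 13.3 in mesentery on chow, 12.7 to 13.0 in mesentery on HFD, 11.9 to 12.1 in epididymal fat on chow and 10.9 to 11.8 in epididymal fat on HFD. Markers of other cells were present. The summed level of 8 pancreatic acinar genes, Amy2a5 and Clps the most abundant (here and below by mean normalized count, not per length), was 44922 to 292575 in mesentery and at most 96.7 in epididymal fat over both diets. The 3 hemoglobin genes in the table, with Hba-a1 and Hba-a2 the most abundant, summed to at most 396 in mesentery and to 31874 to 43934 in epididymal fat. Summed, 8 markers of macrophages and other leukocytes, led by Lyz2 and Cd68, came to between 4603 and 74789 in epididymal fat on chow and between 117795 and 290040 on HFD, and to 1361 to 6617 and 3896 to 21948 in mesentery. The 7 adipocyte markers, led by Cfd and Cidec, summed to 3942 to 6405 in mesentery and 63436 to 86335 in epididymal fat on chow, where all 7 were higher, and to 4285 to 9038 and 4091 to 14289 on HFD, where none passed. The 7 smooth muscle and pericyte markers, led by Rgs5 and Acta2, summed to 1287 to 1516 and 12034 to 22041 on chow (5 higher) and to 1574 to 3740 and 5866 to 11682 on HFD (3 higher). The 6 fibroblast markers, led by Dcn and Lum, summed to 6383 to 9572 and 17397 to 54588 on chow (5 higher) and to 4278 to 9133 and 37445 to 53506 on HFD (6 higher). Of 7 mesothelial markers, led by Krt19 and Upk3b, 6 were tested, with sums of 138 to 288 and 456 to 771 on chow (4 higher) and of 233 to 258 and 248 to 505 on HFD (1 higher). In bulk samples of this kind fewer cells of a type and less RNA per cell cannot be told apart.

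Set against exon length, the 9 genes spanned more than 2 orders of magnitude, and Cldn5 moved furthest in their order between groups. In mesentery on chow Esam was first with 6091 ± 386 normalized counts per kilobase of exon (SD, n = 3), F11r followed with 2984 ± 319, and Pecam1 ranked 3 with 1980 ± 130. The middle of the order was formed by Cdh5 with 914 ± 261, Jam2 with 864 ± 168, Ctnnb1 with 678 ± 134 and Cldn5 with 626 ± 309, and these 4 neighbours overlapped within their spread. Tjp1 with 146 ± 27.1 and Ocln with 28.5 ± 38.9 closed it. In epididymal fat Cldn5 stood first, with 11289 ± 2941 on chow and 11790 ± 3537 on HFD, ahead of Esam with 6661 ± 601 and 4340 ± 1422. In mesentery on HFD it ranked 3, with 2446 ± 1739, a spread that overlapped both neighbours, F11r and Pecam1. Tjp1 and Ocln ranked 8 and 9 in all 4 groups. These values depend on the exon length used. With the exons of GENCODE's basic transcripts, Esam held 10239 ± 924 in epididymal fat on chow, within the spread of Cldn5, and 6672 ± 2186 on HFD, and Ctnnb1 moved from rank 6 to rank 4 in mesentery on chow.

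**Figure D1:**
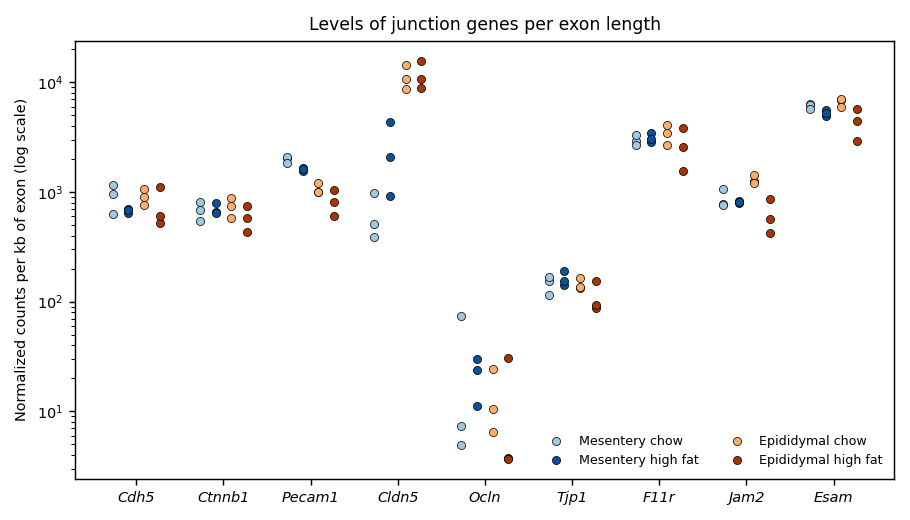
Normalized counts per kilobase of exon (log scale) for each of the 9 junction genes, with 1 point per library and a colour per group. Cldn5 lies among Cdh5, Jam2 and Ctnnb1 in mesentery on chow, near 626, and above all others in epididymal fat, near 11289 and 11790.

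Cdh5 (ENSMUSG00000031871) encodes VE-cadherin, the adhesion receptor of the endothelial adherens junction and the gene whose promoter drove the Cre. Its normalized counts were 4046, 4822 and 2657 in mesentery on chow (libraries A, B and C), 2948, 2680 and 2876 in mesentery on HFD, 3177, 4456 and 3778 in epididymal fat on chow, and 2172, 4627 and 2560 in epididymal fat on HFD. The groups overlapped in all 4 comparisons, and in mesentery all 3 high fat libraries fell between chow library C and chow library A. The fitted difference between tissues (epididymal minus mesentery, on the log2(normalized count + 1) scale on which all differences below are given) had a 95% interval of -0.59 to 0.62 on chow and of -0.54 to 0.66 on HFD. The interval for the diet was -1.0 to 0.21 in mesentery and -0.95 to 0.25 in epididymal fat.

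Ctnnb1 (ENSMUSG00000006932) encodes beta-catenin, which links cadherins to actin through alpha-catenin and acts in Wnt signalling when it is free. It was the steadiest of the 9 genes, with an SD of 0.28 over the 12 log2 values. Its levels were 3579, 4184 and 2798 in mesentery on chow, 4090, 3427 and 3318 in mesentery on HFD, 3891, 4609 and 2998 in epididymal fat on chow, and 2248, 3861 and 3025 in epididymal fat on HFD. Every pair of groups overlapped, and the intervals for the tissue difference were -0.39 to 0.63 on chow and -0.78 to 0.23 on HFD.

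Pecam1 (ENSMUSG00000020717) encodes PECAM-1 (CD31), an adhesion protein of cell borders used widely as an endothelial marker and needed for leukocyte passage. Mesentery held 12596, 12974 and 11417 normalized counts on chow and 9680, 10307 and 10066 on HFD. Epididymal fat held 6199, 7472 and 6187 on chow and 3730, 6515 and 5003 on HFD. Each of the 6 mesenteric libraries was above each of the 6 epididymal ones. Pecam1 was 1.86-fold lower in epididymal fat on chow (log2 difference -0.90, SE 0.21, adjusted p 0.0133, limma with Benjamini-Hochberg adjustment) and 1.97-fold lower on HFD (-1.02, SE 0.21, adjusted p 0.0102). The 2 tissues of one number, which the sample descriptions share, gave the same direction in 6 of 6 numbers, which follows from the lack of overlap. Of the 14 other endothelial genes, 10 were lower in epididymal fat on chow and 12 on HFD, and none was higher. Mesentery on the 2 diets did not overlap either, without a call (-0.30, adjusted p 0.920). Among 18 other settings of the analysis, called alternatives below, the call between tissues on chow was lost without mesentery replicate A (adjusted p 0.0531), without epididymal replicate A (0.0621), with TMM scaling (0.0976) and with edgeR (0.0743), and on HFD with TMM scaling (0.0731) and edgeR (0.0767). It was also lost on both diets with the covariate described further on.

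Cldn5 (ENSMUSG00000041378) encodes claudin-5, the main sealing claudin of endothelium, known best from the blood-brain barrier. Mesentery held 555, 722 and 1383 normalized counts on chow and 6144, 1300 and 2948 on HFD. Epididymal fat held 15133, 20509 and 12312 on chow and 12555, 22263 and 15268 on HFD. The lowest epididymal library was above the highest mesenteric one, and the mesenteric libraries differed among themselves by larger ratios than the epididymal ones did. On chow the epididymal mean was 18-fold the mesenteric one (log2 difference 4.25, SE 0.48, adjusted p 8.46e-05), and on HFD it was 4.82-fold (2.50, SE 0.48, adjusted p 0.00587). Of all 22238 genes tested, 0.944% had a larger difference in that direction on chow and 4.56% on HFD.

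Within one number the epididymal level of Cldn5 exceeded the mesenteric one in 6 of 6 cases, which follows from the lack of overlap. The ratio was 27.3, 28.4 and 8.91 for the chow numbers 50, 51 and 87, and 17.1, 5.18 and 2.04 for the high fat numbers 52, 53 and 88. The numbers 87 and 88 thus had the lowest ratio of their diet. With only the libraries numbered 50 to 53, the log2 difference was 4.80 on chow (adjusted p 6.97e-05) and 3.23 on HFD (adjusted p 0.00104). What the numbers stand for is not given in the labels.

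Lymphatic markers were also higher in epididymal fat on chow. The summed level of 7 of them (Prox1, Pdpn, Lyve1, Flt4, Ccl21a, Mmrn1 and Reln) was 1332 to 13032 in mesentery on chow, 2818 to 4759 in mesentery on HFD, 22667 to 37637 in epididymal fat on chow and 11831 to 18154 in epididymal fat on HFD. All 7 had reads in each group, and Ccl21a and Flt4 were the most abundant. On chow 5 of the 7 were higher and 1, Flt4, was lower in epididymal fat. Of the 5, Lyve1 and Mmrn1 were called in 17 of 18 alternatives, Ccl21a in 15, Pdpn in 11 and Reln in 9. On HFD none passed as higher, and Flt4 was lower. Flt4 was called in 11 of 18 alternatives on each diet. Mesentery library C on chow had the highest lymphatic sum and the highest Cldn5 of its group, while mesentery library A on HFD had the lowest lymphatic sum and the highest Cldn5 of its own. Prox1, the factor that defines lymphatic identity, had no read in that library. It held at most 79.1 normalized counts in mesentery and 68.7 to 153 in epididymal fat. The adipocyte sum was the highest of its group in mesentery library C on chow (6405) and in mesentery library A on HFD (9038). The fibroblast sum was the highest only in the first of these, and the smooth muscle sum in neither. The 8 epithelial markers in the table, led by Krt18 and Krt19, summed to 151 to 1229 and 222 to 1450 in mesentery and to 261 to 402 and 116 to 239 in epididymal fat, on chow and on HFD, and none of the 7 tested passed between tissues. Krt19 is also among the mesothelial markers, so both sums hold it. The part of lymphatic cells, and of the adipocytes, smooth muscle cells and fibroblasts whose markers were higher in the same comparison, was not tested.

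The 250 bases before the Cldn5 start site (RefSeq, GRCm38.p6, chr16:18776597-18776846, plus strand) are shown because, of the 9 genes, Cldn5 differed most between the tissues. A further reason is that 7 factors known to act on Cdh5 or Cldn5 were measured. Capitals mark ATTGG, which is the CCAAT box read on the other strand.
Cldn5: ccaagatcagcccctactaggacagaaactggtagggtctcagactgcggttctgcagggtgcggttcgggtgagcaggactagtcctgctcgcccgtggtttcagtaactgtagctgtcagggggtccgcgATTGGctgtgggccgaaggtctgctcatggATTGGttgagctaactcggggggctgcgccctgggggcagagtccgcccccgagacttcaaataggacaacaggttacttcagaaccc
The window holds 2 such boxes, at -118 and -88 from the start site. A CCAAT on either strand is found in 33.8% of 32851 promoter windows of this length. The letters GGAA (core of ETS factors such as ERG), ACAAT (core of SOX factors) and GTAAACA (FOXO), searched on both strands, are not in this window. They occur in 93.4%, 27.7% and 3.17% of all windows. Only these exact letters were searched, so other forms of these sites and sites outside the 250 bases are not covered. The table gave a promoter for 5 of the 9 genes.

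Of the 7 factors, SOX18, known to activate Cldn5 in cultured endothelium, was the most abundant and was lower in the tissue in which Cldn5 was higher. Sox18 counts were 14180, 12310 and 10582 in mesentery on chow and 3872, 3416 and 3778 in epididymal fat on chow. They were 9240, 11614 and 9227 in mesentery and 2492, 3892 and 3068 in epididymal fat on HFD. Sox18 was lower in epididymal fat by -1.74 on the log2 scale on chow (adjusted p 0.000125) and by -1.69 on HFD (adjusted p 0.000232), with no overlap. Foxo1, known as a repressor of Cldn5, was also lower in epididymal fat, by -0.70 on chow (adjusted p 0.0348, called in 8 of 18 alternatives) and by -1.17 on HFD (adjusted p 0.00293). The other 5 (Erg, Fli1, Sox17, Foxo3 and Tal1) did not pass in either comparison. Averaged over the diets 3 of the 7 were lower, with Tal1 (-1.18, adjusted p 0.0184) beside Sox18 and Foxo1, and none higher. The median difference of the 14 other endothelial genes in the same comparisons was -1.01 on chow and -1.42 on HFD. A link between the level of any of these factors and that of Cldn5 was not tested.

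Ocln (ENSMUSG00000021638) encodes occludin, a tight junction protein with 4 membrane passes that is abundant in epithelia and in brain endothelium. Its counts were 31, 21 and 310 in mesentery on chow, 47, 128 and 101 in mesentery on HFD, 27, 44 and 103 in epididymal fat on chow, and 130, 16 and 16 in epididymal fat on HFD. In mesentery on chow and in epididymal fat on HFD 1 library was far above the others, the groups overlapped in every comparison, and the tissue difference on chow had an interval of -2.41 to 1.96. The libraries numbered 50 to 53 taken alone gave a lower level in epididymal fat on HFD (log2 difference -2.78, adjusted p 0.00923), which rests on 2 libraries a group.

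Tjp1 (ENSMUSG00000030516) encodes ZO-1, the scaffold that ties claudins and JAM proteins to actin. Its counts were 1210, 1301 and 898 in mesentery on chow, 1478, 1100 and 1203 in mesentery on HFD, 1034, 1284 and 1054 in epididymal fat on chow, and 685, 1192 and 723 in epididymal fat on HFD. Libraries A and C of the last group were the lowest of all 12, and library B lay among the others. The tissue difference on HFD did not pass (-0.58, SE 0.23, adjusted p 0.160), and it passed in 2 of 18 alternatives: with each library scaled to the same total (adjusted p 0.0462) and without epididymal replicate B on HFD (0.0411).

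**Figure D2:**
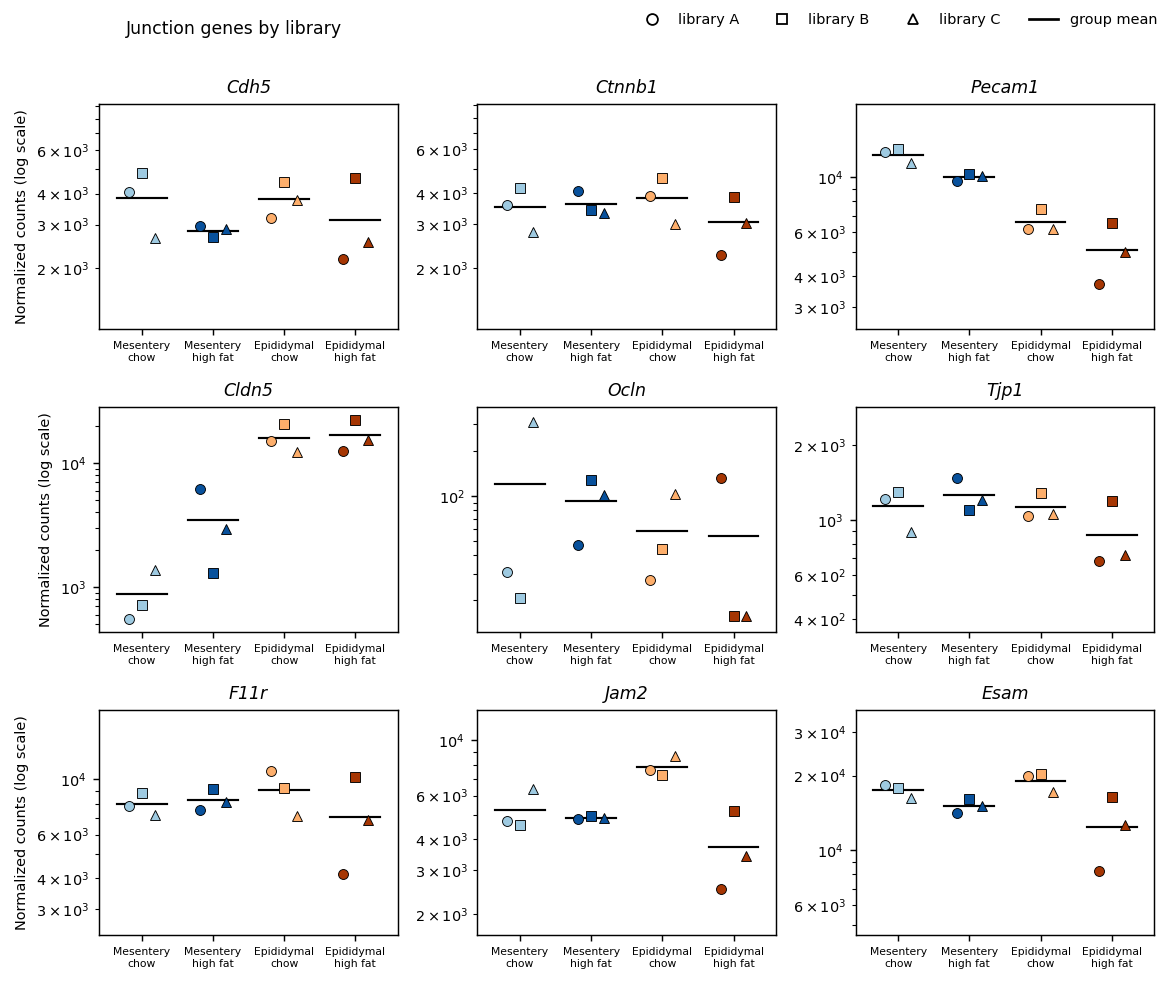
Normalized counts (log scale, a different range in each panel) of the 9 junction genes in the 12 libraries, with symbols for libraries A, B and C and a line at each group mean. Cldn5 is higher and Pecam1 lower in all 6 epididymal libraries than in all 6 mesenteric ones, and in epididymal fat Jam2 is lower in the 3 high fat libraries than in the 3 chow ones.

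F11r (ENSMUSG00000038235) encodes JAM-A, which takes part in tight junction assembly and in leukocyte passage. Its counts were 7809, 8854 and 7175 in mesentery on chow, 7516, 9171 and 8107 in mesentery on HFD, 10866, 9229 and 7145 in epididymal fat on chow, and 4158, 10244 and 6871 in epididymal fat on HFD. All groups overlapped, and the last one held both a low and a high library. The tissue difference had an interval of -0.44 to 0.79 on chow and of -0.93 to 0.30 on HFD.

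Jam2 (ENSMUSG00000053062) encodes JAM-B, an endothelial adhesion protein that binds JAM-C and leukocyte integrins. Its counts were 4722, 4555 and 6396 in mesentery on chow, 4818, 4983 and 4886 in mesentery on HFD, 7626, 7261 and 8666 in epididymal fat on chow, and 2528, 5188 and 3436 in epididymal fat on HFD. In epididymal fat the diet groups did not overlap, and the high fat mean was 2.11-fold lower. This difference was the nearest to a diet effect among the 9 genes and did not pass (log2 difference -1.14, SE 0.24, unadjusted p 0.000364, adjusted p 0.0587 in limma). It passed in 4 of 18 alternatives, namely DESeq2 (adjusted p 0.000714), a mean of at least 50 (0.0364), the number range as a covariate (0.0491) and without epididymal replicate B on HFD (0.0103). In mesentery the interval for the diet was -0.59 to 0.44. The difference between the diet effects of the 2 tissues was -1.06 (SE 0.34, unadjusted p 0.0078, adjusted p 0.673) and did not pass either. On chow the epididymal libraries were all above the mesenteric ones (log2 difference 0.60, adjusted p 0.128), without a call, and this difference passed in 1 of 18 alternatives, the libraries numbered 50 to 53 alone (adjusted p 0.0438).

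Esam (ENSMUSG00000001946) encodes an adhesion protein of endothelium and platelets that lines cell borders. Its counts were 18331, 17842 and 16216 in mesentery on chow, 14151, 16123 and 15046 in mesentery on HFD, 19852, 20312 and 17124 in epididymal fat on chow, and 8271, 16419 and 12637 in epididymal fat on HFD. In both tissues every high fat library was below every chow library, in mesentery only just (16216 against 16123). The diet difference was -0.67 in epididymal fat (SE 0.25, unadjusted p 0.0194, adjusted p 0.463) and its interval in mesentery was -0.75 to 0.33. Platelet markers, 6 genes in the table with Pf4 and Ppbp the most abundant and 3 that could be tested, summed to 848 to 3555 in epididymal fat on chow and to 2314 to 5464 on HFD, and their part in the level of Esam was not tested.

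Between tissues, 2 of the 9 genes passed on chow, where 12.8% of all genes tested did, and 2 of 9 on HFD, where 8.34% did. In both cases they were Cldn5, higher, and Pecam1, lower in epididymal fat, and the 2 comparisons share no library but use 1 estimate of the spread. Of all genes 7.32% were called higher and 5.47% lower in epididymal fat on chow, and 4.91% and 3.43% on HFD. That split moves with the scaling: 57.2% of the calls on chow and 58.9% of those on HFD were higher, against 67.3% and 35.3% with equal library totals. At an unadjusted p under 0.05, 3 of 9 genes passed on chow (25.4% of all genes). Over both diets 2 of 9 passed against 21.8% of all genes (12.8% higher and 9.05% lower), again Cldn5 (3.37, SE 0.34, adjusted p 1.53e-05) and Pecam1 (-0.96, SE 0.15, adjusted p 0.000526). The groups of 3 did not overlap for 3 of 9 genes on chow (28.7% of all genes) and for 2 of 9 on HFD (26.4%). The median difference of the 9 genes was 0.12 on chow, beside -0.08 over all genes, and -0.33 on HFD, beside 0.06. A count of 2 in 9 is no property of the set beside such shares.

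**Figure D3:**
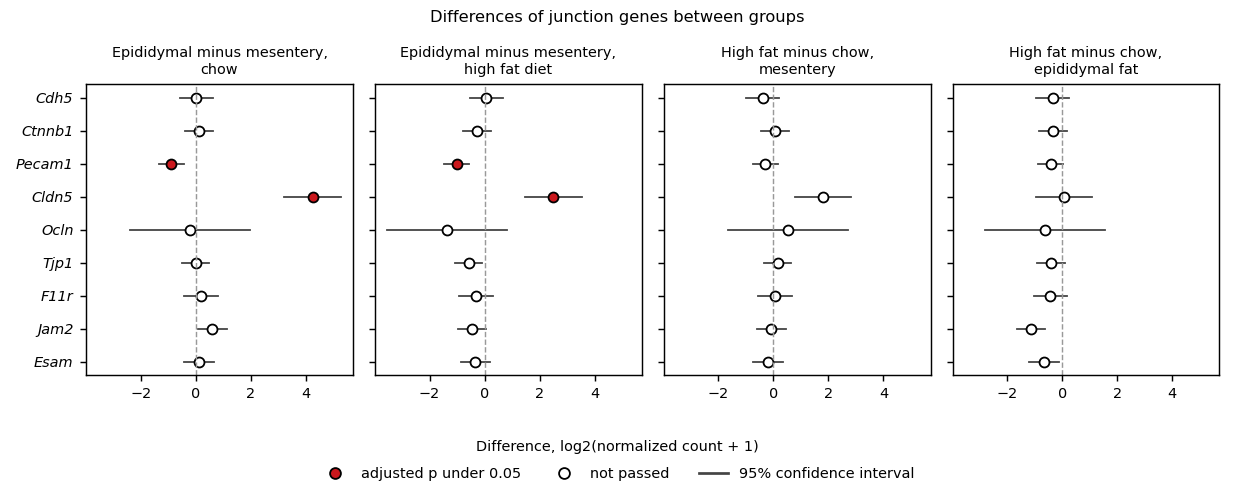
Fitted differences of the 9 junction genes in 4 comparisons, on the log2(normalized count + 1) scale, with 95% confidence intervals as bars and filled points for an adjusted p under 0.05. Filled points are seen for Cldn5 (4.25 and 2.50) and Pecam1 (-0.90 and -1.02) between tissues, and for no gene between diets.

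Between diets, limma called 0 of the 9 genes in mesentery, where it called 0.0135% of all genes (3 of 22238, 0.00899% as higher), and 0 of 9 in epididymal fat, where it called 0.549% (122, with 0.13% as lower). Of those 122 calls 76.2% were higher, against 61.5% of the calls with equal library totals. At an unadjusted p under 0.05, 1 of 9 passed in mesentery (6.15% of all genes) and 2 of 9 in epididymal fat (6.94%). edgeR called 0 in both tissues, with 0.0045% of all genes called in mesentery and 0.13% in epididymal fat. DESeq2 called 1 in each, Cldn5 in mesentery (adjusted p 0.0109, 0.755% of 19857 genes called) and Jam2 in epididymal fat (4.29% of 13118 genes called). Averaged over tissues limma called 0 of 9 (0.549% of all genes, 0.0854% as lower) with 4 at an unadjusted p under 0.05 (8.31% of all genes). In the same comparison edgeR called 0 (0.126% of all genes) and DESeq2 1 (4.27% of 13964 genes), Jam2 (adjusted p 0.0191). The groups did not overlap for 2 of 9 genes in mesentery, Pecam1 and Esam (9.61% of all genes), and for 2 of 9 in epididymal fat, Jam2 and Esam (13.5%).

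In epididymal fat 8 of the 9 genes had a negative fitted difference on HFD, with a median of -0.41 beside 0.10 over all genes. All 14 other endothelial genes were negative there too, with a median of -0.59, and none of them passed. Adipocyte markers summed to 63436 to 86335 on chow and to 4091 to 14289 on HFD in these libraries, and 3 of the 7 (Cfd, Retn and Adipoq) passed as lower, while Cidec did not (-1.14, adjusted p 0.510). The macrophage sums given above moved the other way, with none of the 8 markers past the test. Of the 6 fibroblast markers 5 were positive (median 1.61), and Lum passed as higher (2.30, adjusted p 0.0135, called in 12 of 18 alternatives). All 7 smooth muscle and pericyte markers were negative (median -0.86), and none passed. The part of any of these cells in the differences of the 9 genes was not tested. In mesentery 5 of 9 were positive, with a median of 0.05 beside -0.002, and 13 of the 14 endothelial genes were negative with a median of -0.31. Scaling each library to the same total moved the median of all genes from -0.002 to 0.12 in mesentery and from 0.10 to -0.03 in epididymal fat, and moved the median of the 9 genes to 0.19 and -0.56.

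Cldn5 in mesentery had the smallest unadjusted p of the 9 for the diet there. The high fat mean was 3.91-fold the chow mean, high fat library B (1300) lay below chow library C (1383), and the difference did not pass in limma (log2 difference 1.80, SE 0.48, unadjusted p 0.00218, adjusted p 0.450). In epididymal fat the interval for the diet was -0.97 to 1.08. The difference between the diet effects of the tissues, which is also the difference between 4.25 and 2.50, was -1.75 (SE 0.67, unadjusted p 0.0217, adjusted p 0.915). For the difference of diet effects limma called 0 of the 9 genes, where it called 0.0045% of all genes (1), and 2 of 9 had an unadjusted p under 0.05 (4.71% of all genes). edgeR (0.0045% of all genes) and DESeq2 (0.809% of 16078 genes) also called 0. A larger separation of the tissues on chow than on HFD was therefore not shown for any of the 9.

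Relative to the mean log2 level of the 14 other endothelial genes, 8 of the 9 genes lay higher in all 6 epididymal libraries than in all 6 mesenteric ones, and so did 40% of the 22238 genes tested, against 5.53% before that mean was subtracted. For 6 of the 8 the levels themselves overlapped over both diets. Cdh5 lay -1.26, -1.10 and -1.42 from that mean in mesentery on chow, -1.26, -1.60 and -1.24 in mesentery on HFD, -0.28, 0.07 and -0.02 in epididymal fat on chow, and 0.17, 0.35 and 0.01 in epididymal fat on HFD. The 6 epididymal values were all above the 6 mesenteric ones, although the level of Cdh5 itself overlapped between the tissues. The same order held for Ctnnb1 (-1.44 to -0.79 in mesentery, -0.36 to 0.25 in epididymal fat), Tjp1 (-3.00 to -2.26 and -1.90 to -1.49), F11r (-0.32 to 0.26 and 0.90 to 1.5), Jam2 (-1.18 to -0.15 and 0.39 to 1.18) and Esam (0.79 to 1.19 and 2.10 to 2.37). The tissues came close for Pecam1, with 0.33 to 0.69 in mesentery and 0.69 to 0.98 in epididymal fat. Cldn5 lay -4.13 to -0.20 from it in mesentery and 1.68 to 2.7 in epididymal fat, and Ocln overlapped. These differences from a mean of other genes are descriptions with no test, and they carry the lower level of those 14 genes in epididymal fat.

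**Figure D4:**
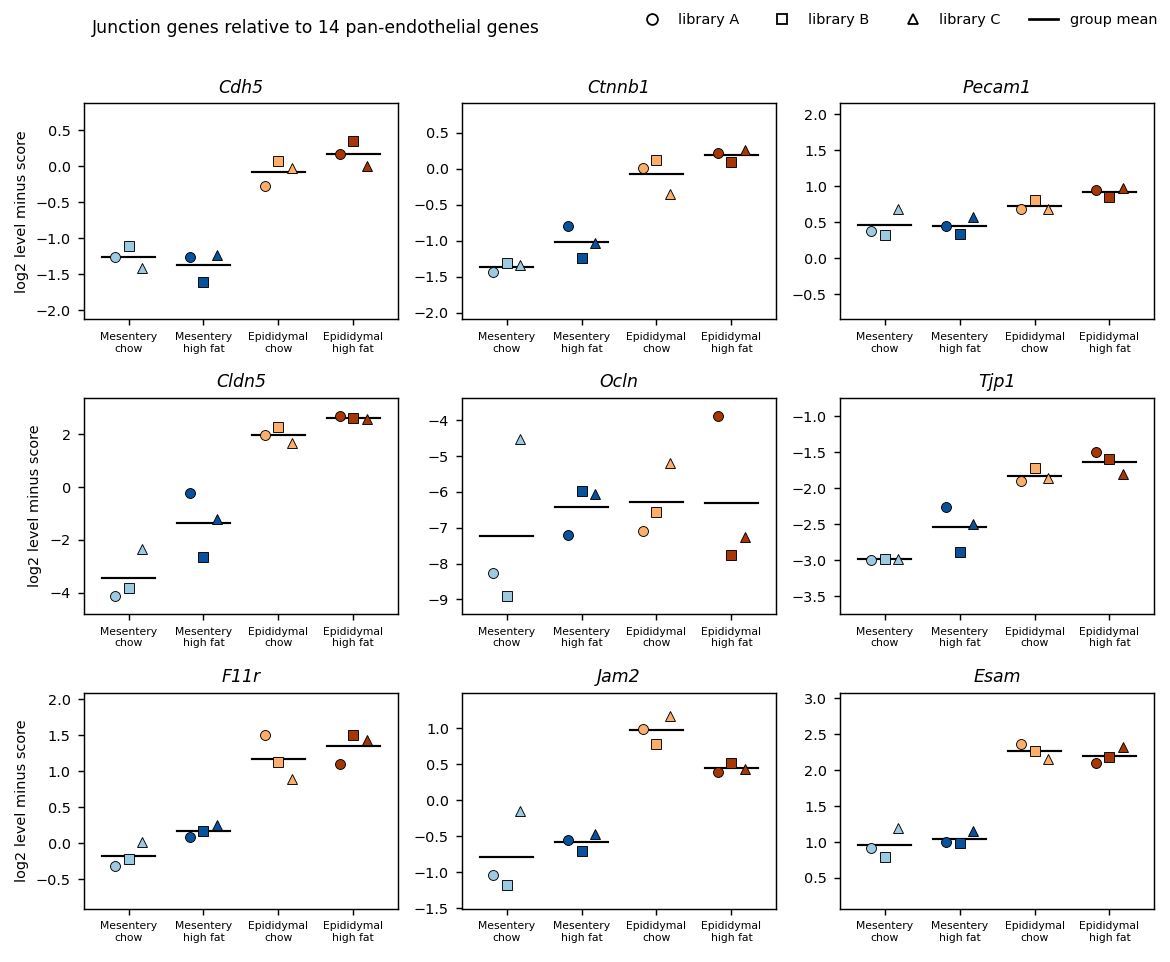
Log2 level of each junction gene minus the mean log2 level of 14 other endothelial genes, by library (symbols) and group (lines at the mean), with a range of its own in each panel. The 6 epididymal values of Cdh5, between -0.28 and 0.35, lie above the 6 mesenteric ones, between -1.60 and -1.10.

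When that endothelial mean was put into the model as a covariate, a step chosen after seeing the data, Pecam1 did not pass on chow (-0.07, adjusted p 0.893) or on HFD (0.05, adjusted p 0.946). Cldn5 kept its call on chow (3.97, adjusted p 0.0429) and lost it on HFD (2.14, adjusted p 0.283). Cdh5 (1.45, adjusted p 0.0328) and F11r (1.48, adjusted p 0.0480) passed as higher in epididymal fat on chow in that fit. It called 4.42% of all genes on chow, 75.2% of them as higher, and 0.0989% on HFD, where it called none of the 9. The endothelial mean itself separates the tissues, so these values come from a model in which both terms share much of the same variation.

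The partners of the 9 genes were read from lists of the same pathways. Their counts stand beside 7.32% of all genes called higher and 5.47% lower in epididymal fat on chow, 4.91% and 3.43% on HFD, and 12.8% and 9.05% averaged over the diets. The part of the adipocytes, smooth muscle cells, fibroblasts, mesothelium and lymphatic cells, whose markers were also higher there on chow, was not tested for any partner. Nor was that of pancreatic acinar cells, whose 8 markers were all lower there on both diets, or of red blood cells (3 of 3 higher on both). The same holds for macrophages and other leukocytes (1 of 8 higher on chow, 4 of 8 on HFD). Of the 14 other endothelial genes 10 were lower in epididymal fat on chow and 12 on HFD, with median differences of -1.01 and -1.42. Whether the partners that were lower share in this general difference was not tested either. Of 13 adherens junction partners, 2 were higher and 2 lower in epididymal fat on chow, 2 higher and 1 lower on HFD, and 2 higher and 3 lower averaged (Nectin3, with -0.60 and adjusted p 0.0112, in addition to those below). Nectin2, an adhesion protein that recruits afadin, held 379, 421 and 684 normalized counts in mesentery and 2359, 1915 and 1681 in epididymal fat on chow (log2 difference 2.04, adjusted p 0.000485). Cdh13, the GPI-anchored T-cadherin that binds adiponectin, held 1650, 1846 and 1943 against 9547, 7504 and 7335 (2.16, adjusted p 0.000485). On HFD the differences were 1.32 for Nectin2 (adjusted p 0.0129) and 1.30 for Cdh13 (adjusted p 0.0186), which passed in 14 and 12 of 18 alternatives. Ptprb, which encodes the phosphatase VE-PTP that binds VE-cadherin and was the most abundant of the list, was lower on both diets (-1.09, adjusted p 0.0184 and 0.0262, called in 11 and 10 of 18 alternatives). Ctnnd1 (p120-catenin, which holds VE-cadherin at the membrane) was lower on chow (-0.99, adjusted p 0.0441, lost in 10 of 18 alternatives).

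Of 24 other claudins 13 were in the table and 10 could be tested. On chow 2 were higher and 1 lower in epididymal fat, and on HFD, as averaged over the diets, 1 was higher and 1 lower. Cldn15, a claudin that forms cation pores and was the most abundant of the list, held 601, 912 and 957 in mesentery and 4153, 4003 and 2431 in epididymal fat on chow, and 1254, 593 and 923 against 2290, 3610 and 2586 on HFD. It was thus higher in every epididymal library, with Cldn5 (log2 differences 2.09 and 1.65, adjusted p 0.000605 and 0.0045). Cldn1, a sealing claudin of epithelia, went the other way, with 225, 211 and 579 against 45, 53 and 14 on chow and 108, 104 and 374 against 12, 49 and 33 on HFD (-3.17 and -2.53, adjusted p 0.0079 and 0.0364, the second called in 10 of 18 alternatives). Cldn10, a further pore-forming claudin, held 30, 20 and 3 in mesentery and 305, 202 and 71 in epididymal fat on chow (3.62, adjusted p 0.0296, called in 12 of 18 alternatives). It did not pass on HFD, and the difference between its diet effects did not pass either (-3.91, adjusted p 0.859). None of 11 tested tight junction partners passed between tissues on either diet, and averaged over the diets 1 was higher, Pard3 (1.52, adjusted p 0.0315, called in 14 of 23 alternatives), a polarity protein that binds JAM proteins.

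Of 10 further immunoglobulin-family junction proteins 8 were in the table, and 1 was higher and 3 lower in epididymal fat on chow, with 1 higher and 2 lower on HFD and 1 higher and 3 lower averaged. Jam3, which encodes JAM-C, the binding partner of JAM-B, held 2202, 2349 and 2133 in mesentery and 575, 560 and 560 in epididymal fat on chow. It held 1463, 1861 and 2325 against 183, 324 and 316 on HFD. The groups were far apart on both diets, 3.95-fold and 6.86-fold (log2 differences -1.98 and -2.79, adjusted p 0.000102 and 7.74e-06), whereas Jam2 and F11r did not pass on either. In epididymal fat Jam3 was also lower on HFD without overlap, and like Jam2 it did not pass (-1.08, adjusted p 0.0585). Mcam (CD146) was lower on both diets (-1.30 and -0.92, adjusted p 0.00426 and 0.0387, the second called in 10 of 18 alternatives), and Pvr (CD155, a nectin-like protein) on chow (-1.15, adjusted p 0.00734). Clmp, a further adhesion protein, was higher on both (1.40 and 1.71, adjusted p 0.0496 and 0.0283, called in 7 and 10 of 18 alternatives). Icam2, an integrin ligand and the most abundant of the list, did not pass.

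**Figure D5:**
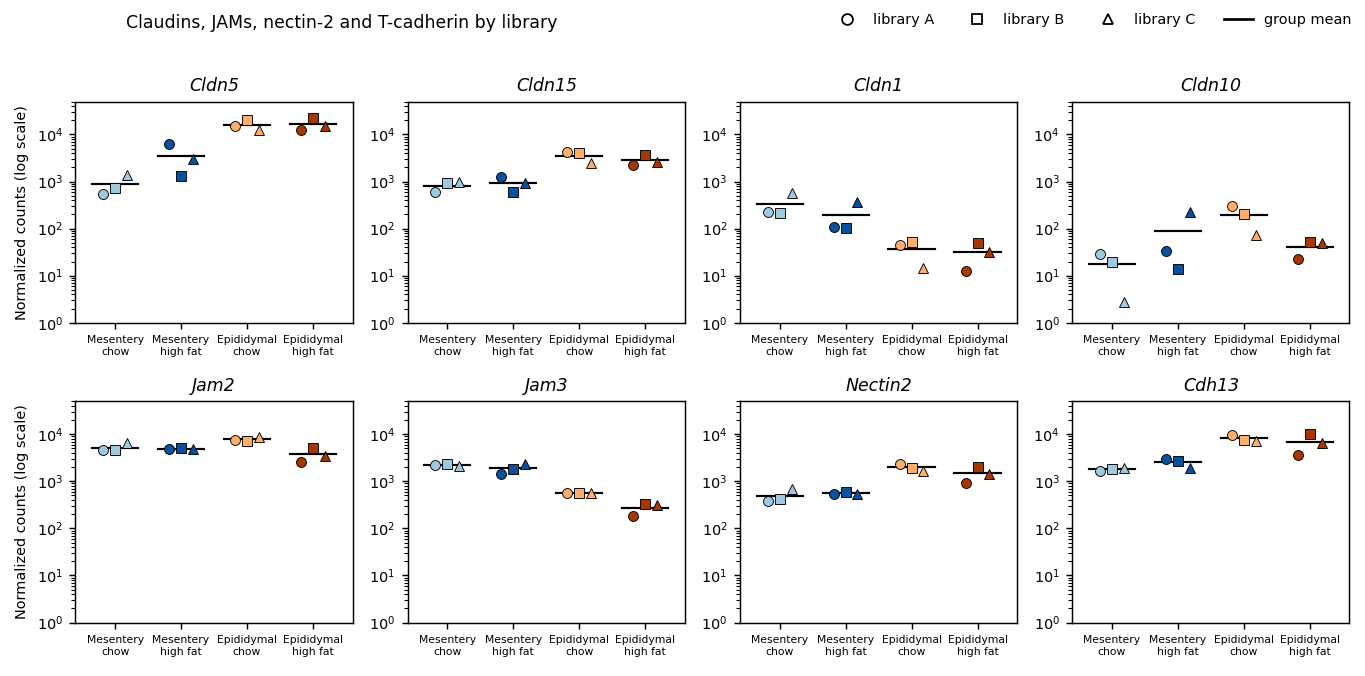
Normalized counts (log scale, the same range in all panels) of 4 claudins, 2 junctional adhesion molecules, nectin-2 and T-cadherin in the 12 libraries, with a line at each group mean. Cldn5, Cldn15, Nectin2 and Cdh13 lie higher and Cldn1 and Jam3 lower in the epididymal groups than in the mesenteric ones on both diets.

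Among 17 regulators of junctions in the Rap1, CCM and small GTPase pathways, none was higher and 5 were lower in epididymal fat on chow, none higher and 4 lower on HFD, and 2 higher (Cdc42 and Rac1, the latter with 0.41 and adjusted p 0.0464) and 7 lower averaged. Arhgap29, a GTPase-activating protein that acts below Rap1 and RASIP1, was lower by -1.45 (adjusted p 0.00167) and -1.75 (adjusted p 0.000689). Rapgef3, which encodes the cAMP-gated Rap1 activator EPAC1, was lower by -1.12 (adjusted p 0.0212, called in 11 of 18 alternatives) and -1.53 (adjusted p 0.00536). Heg1, the receptor that holds the CCM complex at the junction, was lower by -1.06 and -0.96 (adjusted p 0.0126 and 0.0297, called in 14 and 9 of 18 alternatives), and Krit1, a member of that complex, by -1.0 (adjusted p 0.00683) on chow, without a call on HFD (-0.43, adjusted p 0.262). Rock1 was the remaining gene, with -0.70 and -0.62 (adjusted p 0.0107 and 0.0286, called in 13 and 8 of 18 alternatives). Cdc42, a small GTPase and the most abundant of the list, did not pass on either diet alone and was higher averaged over the diets (0.46, adjusted p 0.0477, called in 9 of 23 alternatives).

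For beta-catenin, none of the 5 tested genes of its destruction complex passed between tissues or diets, and Csnk1a1 was the most abundant of them. Of its 8 tested target genes 1 passed between tissues on chow, Nkd1, a feedback inhibitor of Wnt signalling, with 38, 22 and 13 normalized counts in mesentery and 279, 136 and 99 in epididymal fat (log2 difference 2.78, adjusted p 0.0033). No target passed on HFD, and averaged over the diets Nkd1 alone passed of the 8 (1.91, adjusted p 0.00213). No gene of the partner, claudin, immunoglobulin-family, regulator, transcription factor or beta-catenin lists passed between diets in either tissue.

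Over the 12 libraries the junction genes did not share 1 pattern. After each gene was centred on its own mean, the root mean square distance between log2 values was smallest for F11r and Esam (0.17) and for Tjp1 and Ctnnb1 (0.18), and largest for Ocln and Cldn5 (2.55). Among 9820 named genes with a mean of at least 100, the nearest to Cdh5 was Cd93 (0.11), which encodes an endothelial surface receptor, and then Pkn2, Anp32a, Mall and Elk4 (0.19 to 0.20), against an SD of Cdh5 of 0.37. The nearest to Cldn5 were Adh1 (0.37), Epor (0.39), Cygb (0.42), Ndufa4l2 (0.46) and Unc119 (0.46), against an SD of 1.90. Nearest to Ocln were Caprin2, Cecr2, Slc5a3, Lca5 and Ikzf2, between 0.65 and 0.69, against an SD of 1.30. These distances describe 12 libraries that share their tissues and diets, and carry no test.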

How the data were processed

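The deposited values are normalized counts per gene, a signal made by the authors. The submitters' processing notes name STAR 2.7.9a, featureCounts, Subread, DESeq2 1.34.0 and the build mm39, and the use of strand is not given in the sources used here. All values (100%, tolerance 1e-06) were whole reads times 1 step per library, and the reciprocal steps equalled median-of-ratios size factors. Intervals over libraries do not cover this scaling, and the floors cover counting error only. No gene had fewer than 51 reads over all libraries.

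limma 3.58.1 (R 4.3.3) was run on log2(normalized count + 1) with eBayes and a trend, for 22238 genes with a mean of at least 10, with a mean for each of 4 groups, and p-values adjusted by Benjamini-Hochberg within a contrast (threshold 0.05). edgeR 4.0.16 and DESeq2 1.42.0 ran on the recovered reads. Further alternatives were TMM scaling, equal library totals, a pseudocount of 8, no filter or a mean of at least 50, a replicate block, the number range as a covariate or the numbers 50 to 53 alone, only the groups compared, leaving out each library in turn and, added after seeing the data, the mean of 14 endothelial genes as a covariate. The script was tested on simulated data. Exon lengths came from GENCODE M21 by gene identifier, and promoters from RefSeq, both GRCm38, and the only coordinates given are those of the RefSeq promoter.

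The genes, lists and tests were chosen with earlier results of these data known. Named were all 9 genes. From each list the most abundant gene and, per contrast, up to 4 called genes were taken if the higher group's mean reached 50, and from marker lists the 2 most abundant. One gene that this rule names is not reported here. For the nearest patterns the 5 closest genes were taken, skipping predicted genes, clones and pseudogenes. Leaving out mitochondrial genes and rows of more than 1 name was a later addition.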

Additional observations from a re-analysis of the deposited data

How the results depend on the processing

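The numbers of the 9 genes called depended on the tool and the scaling. Shares in this paragraph are of the genes that the setting tested, for DESeq2 those with an adjusted p. DESeq2 called 1 for the diet in mesentery (0.755% of 19857 genes), 1 for the diet in epididymal fat (4.29% of 13118) and 1 for the averaged diet (4.27% of 13964), where limma called 0. A mean of at least 50 (1.33% of 13076 genes) and the number range as a covariate (0.76% of 22238) each gave 1 for the diet in epididymal fat. TMM scaling and edgeR each gave 1 in place of 2 for the tissue on chow (9.83% and 8.92% of all genes) and on HFD (5.48% and 4.59%). Counts of 3 came with equal library totals on HFD (Tjp1 added, 8.63%) and with the numbers 50 to 53 on chow (Jam2 added, 23.3%), on HFD (Ocln added, 14%) and averaged (Ocln added, 37.8%). The endothelial mean as a covariate gave 3 for the tissue on chow (Cdh5, Cldn5 and F11r, 4.42% of all genes), 0 on HFD and 1 for the averaged tissue (1.3%), which was Cdh5, with Cldn5 (adjusted p 0.0960) and Pecam1 lost. Leaving out 1 library at a time gave 0 to 1 for the diet in epididymal fat (1 without epididymal HFD replicate B, 0.75% of all genes) and 1 to 2 for the tissue on chow. The 1 came without epididymal chow replicate A (6.7% of all genes) and without mesentery chow replicate A (7.44%), against 12.8% in the main fit. Without epididymal chow replicate B the count was 2 (6.72%). For the tissue on HFD it was 2 to 3 (Tjp1 added without epididymal HFD replicate B, 5.67%). For the averaged diet it was 0 to 1, with Jam2 called without epididymal HFD replicate B (adjusted p 0.0413, 0.599%). The cause was not tested for any of these.

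Of the 63 differences, 17 had an unadjusted p under 0.05, and 344 of their 346 alternative values kept the direction. The other 46 changed sign in 88 of 923 values. Of the 923 values 5 were called, each with the sign of the main fit. These were Cdh5 (1.45 on chow, 1.66 averaged) and F11r (1.48) with the endothelial mean as a covariate, and Ocln (-2.78 and -1.16) with the numbers 50 to 53. The values that changed sign follow, on the log2 scale, and the cause was not tested. With equal library totals the sign changed for the diet in mesentery Jam2 0.060, for the diet in epididymal fat Cldn5 -0.088, for the tissue on chow Tjp1 0.085, for the tissue on HFD Cdh5 -0.13, for the interaction Cdh5 -0.23, for the averaged tissue Cdh5 -0.011. With TMM scaling the sign changed for the tissue on chow Tjp1 0.047. With edgeR the sign changed for the diet in mesentery Ocln -0.31, for the tissue on chow Tjp1 0.019, for the interaction Ocln 0.13, for the averaged tissue F11r 0.031. With DESeq2 the sign changed for the diet in mesentery Ocln -0.40, for the tissue on chow Cdh5 -0.016, for the interaction Ocln 0.28. With only the libraries numbered 50 to 53 the sign changed for the diet in mesentery Tjp1 -0.12, Jam2 0.089, Ctnnb1 -0.20, for the tissue on chow Cdh5 -0.23, Ocln 0.45, for the tissue on HFD Ctnnb1 0.019, for the interaction Pecam1 0.074, for the averaged diet Ocln 0.51, for the averaged tissue F11r 0.11, Esam 0.019, Ctnnb1 0.075. With the endothelial mean as a covariate, chosen after seeing the data, the sign changed for the diet in mesentery Ocln -0.59, Jam2 0.063, Esam 0.032, for the diet in epididymal fat Cdh5 0.39, Pecam1 0.021, Cldn5 -0.093, Tjp1 0.096, F11r 0.24, Ctnnb1 0.18, for the tissue on chow Tjp1 0.98, for the tissue on HFD Pecam1 0.047, Tjp1 0.67, Jam2 0.26, F11r 1.3, Esam 0.90, Ctnnb1 1.02, for the interaction Pecam1 0.11, for the averaged diet Cdh5 0.18, Tjp1 0.25, F11r 0.31, Ctnnb1 0.24, for the averaged tissue Tjp1 0.83, F11r 1.41, Esam 1.00, Ctnnb1 1.08. Leaving out 1 library at a time gave ranges that cross 0 for the interaction Cdh5 -0.28 to 0.29, Pecam1 -0.31 to 0.090, for the averaged tissue Cdh5 -0.12 to 0.15, Ctnnb1 -0.17 to 0.023, Esam -0.22 to 0.030, F11r -0.22 to 0.10, Jam2 -0.066 to 0.19, for the tissue on chow Cdh5 -0.23 to 0.20, Ctnnb1 -0.036 to 0.29, Ocln -0.96 to 0.97, Tjp1 -0.17 to 0.10, for the tissue on HFD Cdh5 -0.26 to 0.28, F11r -0.62 to 0.027, for the diet in epididymal fat Cldn5 -0.18 to 0.25, for the diet in mesentery Ctnnb1 -0.11 to 0.18, F11r -0.020 to 0.14, Jam2 -0.17 to 0.078, Ocln -0.22 to 1.71, Tjp1 -0.0047 to 0.26, for the averaged diet Ocln -0.55 to 0.54.

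Over all genes the calls for the diet in epididymal fat, 122, were 68 with TMM scaling, 29 with edgeR, 563 with DESeq2, 30 with the numbers 50 to 53, 228 with only the groups compared, 1 with the endothelial mean and 24 to 169 without 1 library. In mesentery 3 became 150 with DESeq2, 20 with the numbers 50 to 53, 7 with a mean of at least 50, 1 with edgeR or only the groups compared, and 1 to 36 without 1 library. For the tissue on chow 2843 became 4507 with the numbers 50 to 53, 984 with the endothelial mean and 1512 to 3305 without 1 library. On HFD 1854 became 1206 with TMM scaling, 1021 with edgeR, 2931 with DESeq2, 22 with the endothelial mean and 726 to 1747 without 1 library. The interaction, 1, became 130 with DESeq2, 11 with the numbers 50 to 53, 3 with a mean of at least 50, and 1 to 18 without 1 library. The averaged diet, 122, became 75 with TMM scaling, 28 with edgeR, 596 with DESeq2, 19 with the numbers 50 to 53, 2 with the endothelial mean and 18 to 267 without 1 library. The averaged tissue, 4848, became 7311 with the numbers 50 to 53 and 288 with the endothelial mean.

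The replicate block (letter for the diet, number for the tissue) called 0, 0, 2, 2, 0, 0 and 2 of the 9 genes in the 7 comparisons, as without it. Over all genes it called 4, 104, 2816, 1890, 2, 73 and 4973. Correlations of deviations were 0.03, 0.53 and 0.58 for shared numbers on chow and -0.15, 0.15 and -0.11 on HFD, so not every library followed its number. For shared letters they were -0.15, 0.12 and 0.04 in mesentery and -0.68, 0.44 and -0.65 in epididymal fat. Libraries of the same letter are taken to share only a name. In epididymal fat, libraries of different letters went with the number range. Chow C with HFD A, both outside the numbers 50 to 53, gave 0.84. Pairs inside that range gave 0.59 (chow A with HFD B), 0.45 (A with C) and 0.56 (B with C). Mixed pairs gave -0.63 (B with A) and -0.66 (C with B). In mesentery, different letters gave -0.18 to 0.21. The letter block for the diet does not group libraries by number range. Ocln had 16 to 310 normalized counts and an SD within groups of 1.48 (log2).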
